A study of Mus musculus with 8 samples.

Results

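Muscle fibres of the soleus, a slow and oxidative calf muscle, burn fatty acids as a main fuel. The 38 genes described here carry that route, and were chosen by name as genes of fatty acid uptake, activation, mitochondrial import, beta-oxidation, electron transfer and their control. All 38 have probes on the array, 64 of its 56605 probes, among 37074 gene names in all. The rule for choosing them uses gene names and no measured value, though the list was drawn up with earlier results of these data known.

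Of the 8 samples, 4 were soleus muscles filed as Porphyromonas gingivalis, an oral bacterium linked to periodontitis, which the mice received by feeding needle in 100 µL of saline. The other 4 were soleus muscles filed as saline alone. Both groups were male C57BL/6J mice, started at 8 weeks of age, dosed for 6 weeks and 14 weeks old at the end, and both ate High-fat diet 32 throughout. There was therefore no group on a normal diet, and every level below is that of a high-fat-fed animal. The labels do not say that each array held RNA of a separate mouse, so p-values measure only the spread between these samples.

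A fatty acid reaches a fibre from triglyceride split by lipoprotein lipase on the capillary wall, crosses the membrane with the help of CD36 and fatty acid transport proteins, and is bound inside by FABP3. Acyl-CoA synthetases activate it, and the carnitine shuttle carries it into mitochondria. There a cycle of dehydrogenation, hydration, a further dehydrogenation and thiolysis releases acetyl-CoA for the citric acid cycle, while electron transfer flavoprotein passes electrons to the respiratory chain.

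Each sample was read on 1 Agilent array with Cy3-labelled RNA. A level below is the log2 processed signal of a gene's brightest probe minus the 75th percentile of its array, so 0 is the level of that percentile. A level compares arrays for 1 probe. Beyond the choice of probe, brightness is used only to group genes or probes into bright and dim and to sum levels over a list. Bright probes weigh most in such a sum. All 8 arrays shared 1 slide and 1 scan. Those filed as P. gingivalis lay in slide row 1 and those filed as saline in slide row 2, so slide row and group cannot be told apart in any result below. The 75th percentile was 648 to 738 in P. gingivalis arrays and 696 to 764 in saline arrays. Between 37525 and 38068 spots were well above background in P. gingivalis arrays, and between 32836 and 36769 in saline arrays. Groups follow the sample records. In the authors' deposited table the columns carry the group names the other way round, and which is right was not settled, so every direction below holds for the groups of the sample records.

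The 38 genes were well above background on all 8 arrays, and 33 of them lay in the top 25% of genes by level. None reached an adjusted p under 0.05 (limma, Benjamini-Hochberg over 22291 genes), a threshold passed by 0.117% of all genes, and by 0.0359% with a higher level. With unadjusted p under 0.05 there were 12 (19.7% of all genes), 11 of them higher in the P. gingivalis arrays (10.0% of all genes) and 1 lower (9.69% of all genes). The groups did not overlap for 9 genes higher (7.33% of all genes) and 1 lower (6.09% of all genes). As shares of the 38, these are 28.9% at unadjusted p with a higher level and 23.7% not overlapping with a higher level, both above the share of all genes.

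The values for 29 of the 38 genes were higher in the P. gingivalis arrays, against 47.7% of all genes. Their median log2 difference was 0.11, beside -0.01 over all genes. Over 5 ways of correcting and scaling the arrays, the 4 others named next, 25 genes were higher in every one, Cpt1a was lower in every one, and 12 changed sign. The median of the 38 kept its sign, at 0.11 with normexp background correction, 0.05 with quantile normalization, 0.13 with centring on the median of kept probes and 0.26 with centring on the median of all probes. The last scaling moved the median of all genes to 0.14 and so left the 38 genes 0.12 above it. Bright genes as a class also leaned this way: of 1834 genes at or above the lower quartile of the 38, 60.9% were higher, with a median of 0.03. In that range 14.4% of genes were higher at unadjusted p under 0.05, and 7 of the 28 fatty acid genes there were.

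**Figure D1:**
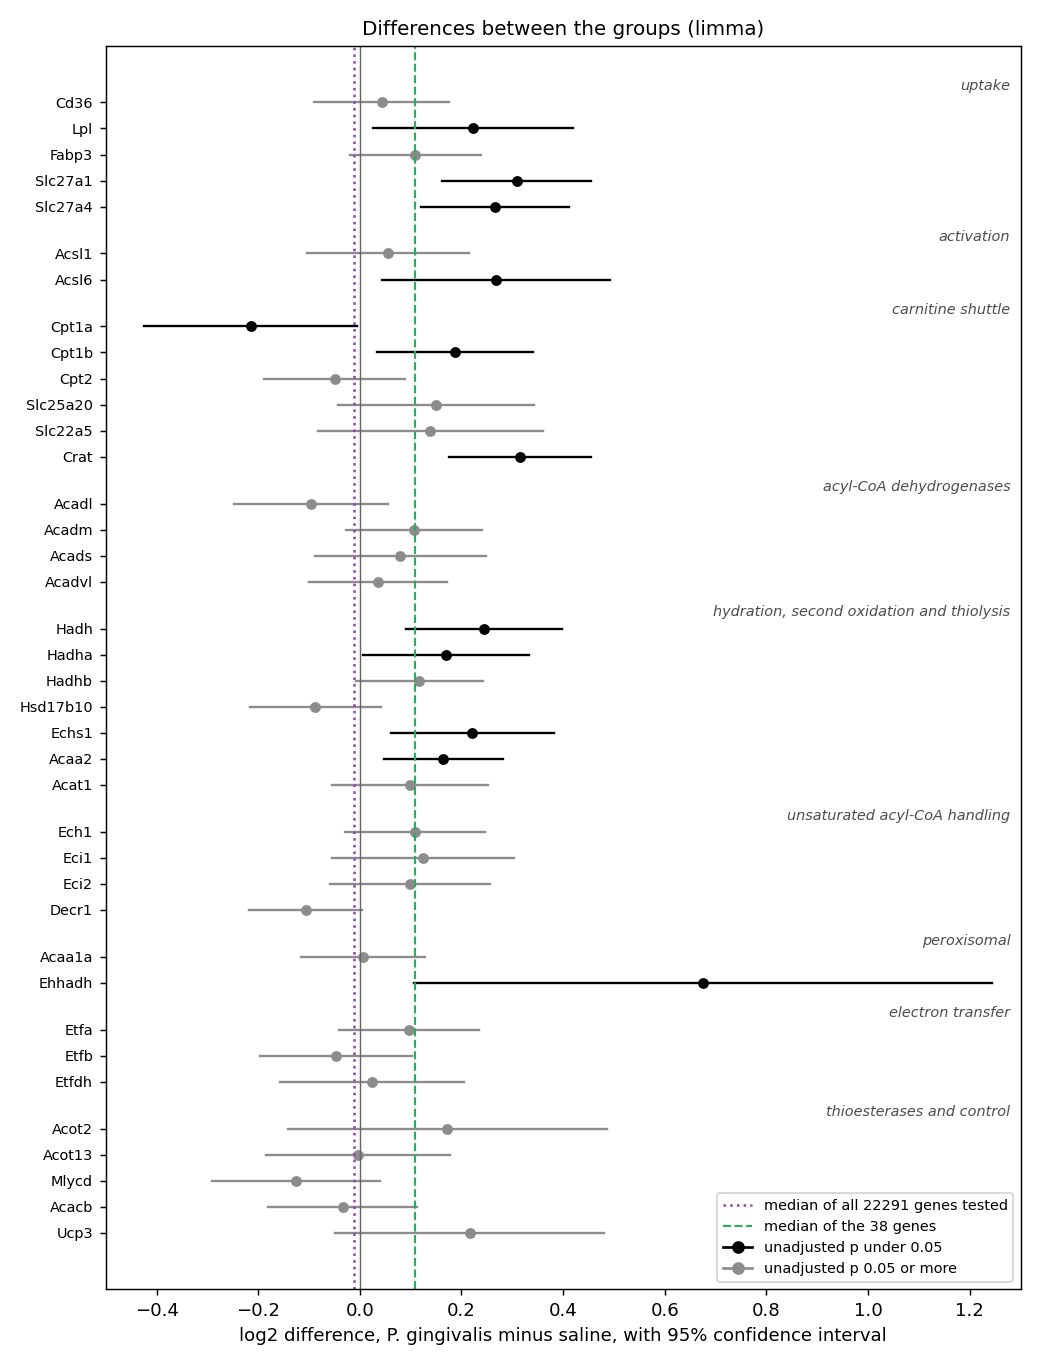
Log2 difference, P. gingivalis minus saline, for each of the 38 genes grouped by role, with its 95% confidence interval from limma, black where the unadjusted p was under 0.05 and grey otherwise. Lines mark 0, the median of all genes and the median of the 38. Most points lie to the right of 0, between -0.22 for Cpt1a and 0.68 for Ehhadh. No gene passed the adjusted threshold, and 12 genes change sign under another scaling.

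The plot of differences by role shows the uptake genes to the right of 0 as a group. All 5 were higher in the P. gingivalis arrays, in each of those 5 ways, with a median of 0.22, or 0.12 with quantile normalization. For 4 of the 5 the groups did not overlap, with a higher level (7.33% of all genes). With the authors' table values 3 of the 5 were higher. That table lacks the brightest probes of Lpl and Fabp3, so other probes of these genes were read there. Slc27a1, the fatty acid transport protein FATP1 of muscle, had levels of 3.39, 3.40, 3.42 and 3.45 in P. gingivalis arrays, against 3.11, 2.96, 3.18 and 3.17 in saline arrays. Every P. gingivalis array lay above every saline array. The difference was 0.31 ± 0.06 (SE, n = 4 each; 95% interval 0.16 to 0.46), a fold of 1.24 with an adjusted p of 0.0783. Its position in mm9 is chromosome 8, bases 74110256 to 74110315. Slc27a4, the related transport protein FATP4, read -1.32, -1.15, -1.15 and -1.23 in P. gingivalis arrays, against -1.45, -1.56, -1.50 and -1.40 in saline arrays. These groups were also separate, by 0.27 ± 0.06 with an adjusted p of 0.0982.

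Lpl encodes lipoprotein lipase. Its brightest probe read 7.58, 7.57, 7.79 and 7.74 in P. gingivalis arrays, against 7.52, 7.25, 7.51 and 7.50 in saline arrays. The lowest P. gingivalis array was just above the highest saline array, and saline 2 was well below the rest of its group. The difference was 0.22 ± 0.09 (95% interval 0.03 to 0.42), a fold of 1.17 with an adjusted p of 0.208, and 0.12 with quantile normalization.

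Lpl is the gene with the most probes here, 6 in all, and they did not move alike. The first 30 bases of each 60-base probe are shown because the sign of the Lpl result depends on which of them is read. All lie on the plus strand of chromosome 8 in build mm9, given in genome order. The first 3 were designed to other transcript records of the locus and the last 3 to the RefSeq transcript NM_008509.
AK154419 probe, chr8:71405538-71405567: ctagctgagagcacatgggattttctagag
AK170106 probe, chr8:71408343-71408372: aggtgaccacacaagagagtgacatttctg
ENSMUST00000101463 probe, chr8:71413311-71413340: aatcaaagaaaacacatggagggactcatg
NM_008509 probe at base 830, chr8:71419652-71419681: atttaccagggggtcacctggtcgaagtat
NM_008509 probe at base 1340, chr8:71425050-71425079: cgaggtttccacaaataaaacctactcctt
NM_008509 probe at base 3484, chr8:71430267-71430296: gaacaccaacccacatgcaaaaccccacaa

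The 3 NM_008509 probes were higher in the P. gingivalis arrays by 0.34, 0.31 and 0.22 in the order printed, with groups that did not overlap for any of them. Over all 33748 kept probes, their adjusted p-values were 0.115, 0.109 and 0.201. The AK154419 probe differed the other way, by -0.43, the AK170106 probe by -0.43 and the ENSMUST00000101463 probe by -0.32. Their groups overlapped, and their adjusted p-values were 0.405, 0.431 and 0.426. The AK154419 probe read 2.10, 1.24, 1.15 and 1.41 in P. gingivalis arrays, against 1.77, 1.77, 2.52 and 1.53 in saline arrays. P. gingivalis 1 and saline 3 stood highest, and saline 3 was well above the other saline arrays.

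**Figure D2:**
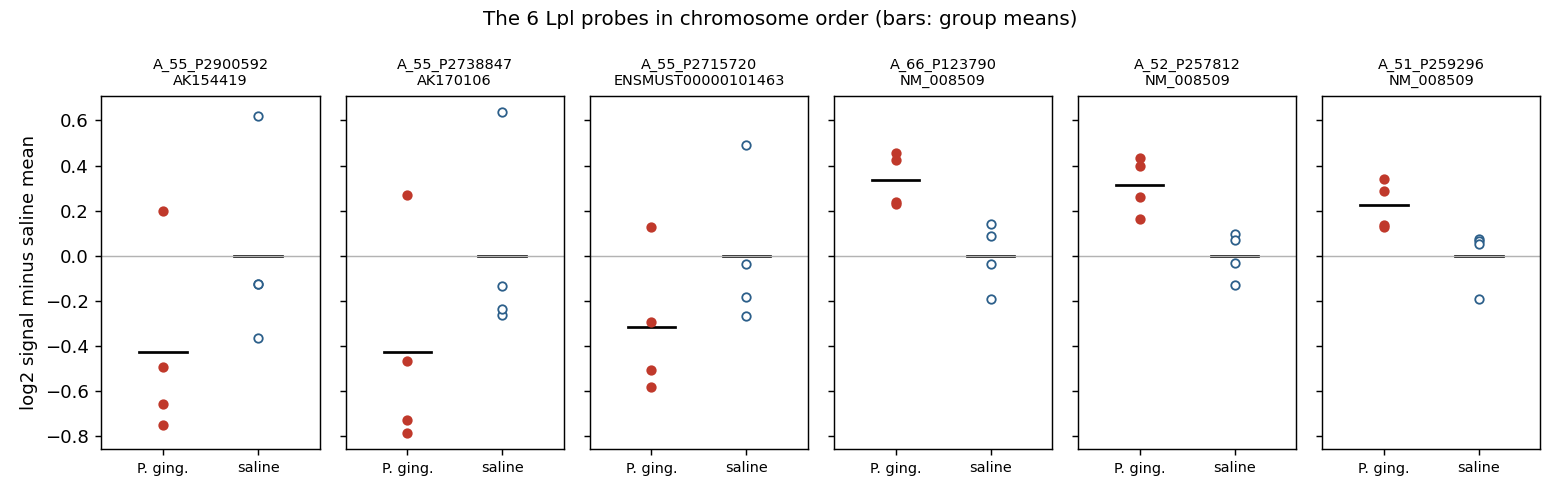
Level of each of the 6 Lpl probes on each array, as log2 signal minus the mean of the 4 saline arrays, in genome order, with P. gingivalis arrays to the left of saline arrays for each probe and bars at group means. The 3 probes of NM_008509 have separate groups, with differences of 0.22 to 0.34, and the groups of the other 3 overlap.

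The plot of the Lpl probes shows that the separation belongs to the RefSeq transcript's probes, and that P. gingivalis 1 and saline 3 are the high points of the other 3. Averaging all 6 probes gave Lpl a difference of -0.05.

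Fabp3, the fatty acid binding protein of heart and slow muscle, read 8.86, 8.90, 8.73 and 8.76 in P. gingivalis arrays, against 8.70, 8.72, 8.71 and 8.68 in saline arrays. The groups were separate by a narrow margin, with a difference of 0.11 ± 0.06 and an adjusted p of 0.321. With quantile normalization the Fabp3 difference was 0.0017, and -0.049 with the authors' table values. Its 2 probes start 9 bases apart and share 51 of their 60 bases, so they are not independent readings. They are printed to show that overlap, with the shared bases of the 30 shown in capitals, on the plus strand of chromosome 4 in mm9.
Fabp3 upstream probe, chr4:129992643-129992672: tttatttttTAAAACTGTATCCAAAGGGTG
Fabp3 downstream probe, chr4:129992652-129992681: TAAAACTGTATCCAAAGGGTGctccaaggt
The downstream probe is the brighter and gave the values above, except -0.049. The authors' table holds only the upstream probe, so -0.049 was read from that. The upstream probe differed by 0.09.

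Cd36, the membrane carrier and scavenger receptor, had levels of 5.22, 5.16, 5.19 and 5.11 in P. gingivalis arrays, against 5.18, 5.01, 5.16 and 5.15 in saline arrays. The groups overlapped and the difference was 0.04 ± 0.06, with an interval of -0.09 to 0.18. Without saline 2 it was 0.0059.

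Of the 2 acyl-CoA synthetases, which join fatty acids to coenzyme A, Acsl6 read 0.21, 0.48, 0.46 and 0.47 in P. gingivalis arrays, against 0.14, -0.08, 0.27 and 0.22 in saline arrays. P. gingivalis 1 lay among the saline arrays and the other 3 lay above them all, with a difference of 0.27 ± 0.10 and an adjusted p of 0.193. A dimmer Acsl6 probe differed by 0.94 with separate groups (adjusted p = 0.0699 over all probes). Another differed by 0.13 with groups that overlapped (adjusted p = 0.838). Each of these was well above background on only 5 of the 8 arrays. Acsl1, the main synthetase of muscle, differed by 0.06 at its brightest probe (adjusted p = 0.684) and by -0.0028 with quantile normalization.

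Acsl1 has 3 probes on the plus strand of chromosome 8 in mm9, shown because their differences span a wide range.
ENSMUST00000128746 probe, chr8:47601866-47601895: tgctgcaaatagtggaggttatgtttgttc
NM_007981 probe at base 2573, chr8:47620082-47620111: ggggaacccataaaagtgctaagttattta
NM_007981 probe at base 3723, chr8:47621232-47621261: gcctaacttcatactcgtattcttaattgc
The ENSMUST00000128746 probe of Acsl1 read -1.94, -1.97, -1.88 and -2.13 in P. gingivalis arrays, against -2.79, -2.79, -2.38 and -3.11 in saline arrays. All P. gingivalis arrays were above all saline arrays, by 0.78 ± 0.15, with an adjusted p of 0.0636 over all probes. The probe at base 2573 differed by 0.35 ± 0.09 (adjusted p = 0.101), again with separate groups. The probe at base 3723, the brightest, differed by 0.06 ± 0.07 with groups that overlapped.

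Of the 6 carnitine shuttle genes 4 were higher, with a median of 0.14, and the extremes of the role ran in opposite directions. Crat, carnitine acetyltransferase, which moves acetyl groups between coenzyme A and carnitine, had the smallest p of the 38 genes. Its levels were 6.97, 7.03, 7.10 and 7.00 in P. gingivalis arrays, against 6.75, 6.62, 6.80 and 6.67 in saline arrays. All 4 P. gingivalis arrays lay above all 4 saline arrays. The difference was 0.32 ± 0.06 (SE, n = 4 each; 95% interval 0.18 to 0.45), a fold of 1.24 (1.13 to 1.37), with an adjusted p of 0.0694. It was below 0.05 with normexp background correction, centring on the median of all probes, a filter on all 8 arrays, no filter, or trended and robust variance. Crat has 2 probes to NM_007760 on the minus strand of chromosome 2 in mm9, and both are shown because both had separate groups.
Crat probe at base 758, chr2:30265509-30265538: tactccagcccaggagtgatcctgcccaag
Crat probe at base 2645, chr2:30257714-30257743: caaaatctgtcttcattggtaaatgcccaa
The probe at base 758 read 1.19, 1.16, 1.10 and 1.17 in P. gingivalis arrays, against 0.89, 0.75, 0.77 and 0.51 in saline arrays, a difference of 0.42 ± 0.08 (adjusted p = 0.0683 over all probes).

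Cpt1b and Cpt1a encode the muscle and liver forms of carnitine palmitoyltransferase 1, the regulated entry step. Cpt1b read 5.93, 5.90, 5.85 and 5.89 in P. gingivalis arrays, against 5.75, 5.54, 5.74 and 5.79 in saline arrays. The groups were separate, with a difference of 0.19 ± 0.07, a fold of 1.14 and an adjusted p of 0.187. Cpt1a had levels of 0.32, 0.30, 0.42 and 0.39 in P. gingivalis arrays, against 0.60, 0.67, 0.32 and 0.69 in saline arrays. Here 3 saline arrays were above every P. gingivalis array and saline 3 was not. The difference was -0.22 ± 0.09, a fold of 0.861, with an adjusted p of 0.243.

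Cpt2, the inner-membrane partner of CPT1, differed by -0.05 (adjusted p = 0.674) at its brightest probe, base 2253 of NM_009949. Its other probe, at base 909, differed by 0.33 ± 0.07 with separate groups and an adjusted p of 0.0825 over all probes. That probe read 1.09, 0.91, 1.05 and 1.06 in P. gingivalis arrays, against 0.63, 0.83, 0.74 and 0.60 in saline arrays. The sign for Cpt2 thus differs between its probes, and it also turns at the brightest probe, to 0.0066 with normexp and 0.099 with centring on the median of all probes. Slc25a20, the carnitine-acylcarnitine carrier, differed by 0.15 (adjusted p = 0.359), with P. gingivalis 1 at 3.20 and the other 3 P. gingivalis arrays at 3.42 to 3.46. Slc22a5, the carnitine transporter OCTN2, differed by 0.14 (adjusted p = 0.455) at its brightest probe and by 0.38 ± 0.07 at a probe further upstream (adjusted p = 0.0658 over all probes). At the upstream probe Slc22a5 read between -1.39 and -1.31 in P. gingivalis arrays and between -1.92 and -1.64 in saline arrays.

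**Figure D3:**
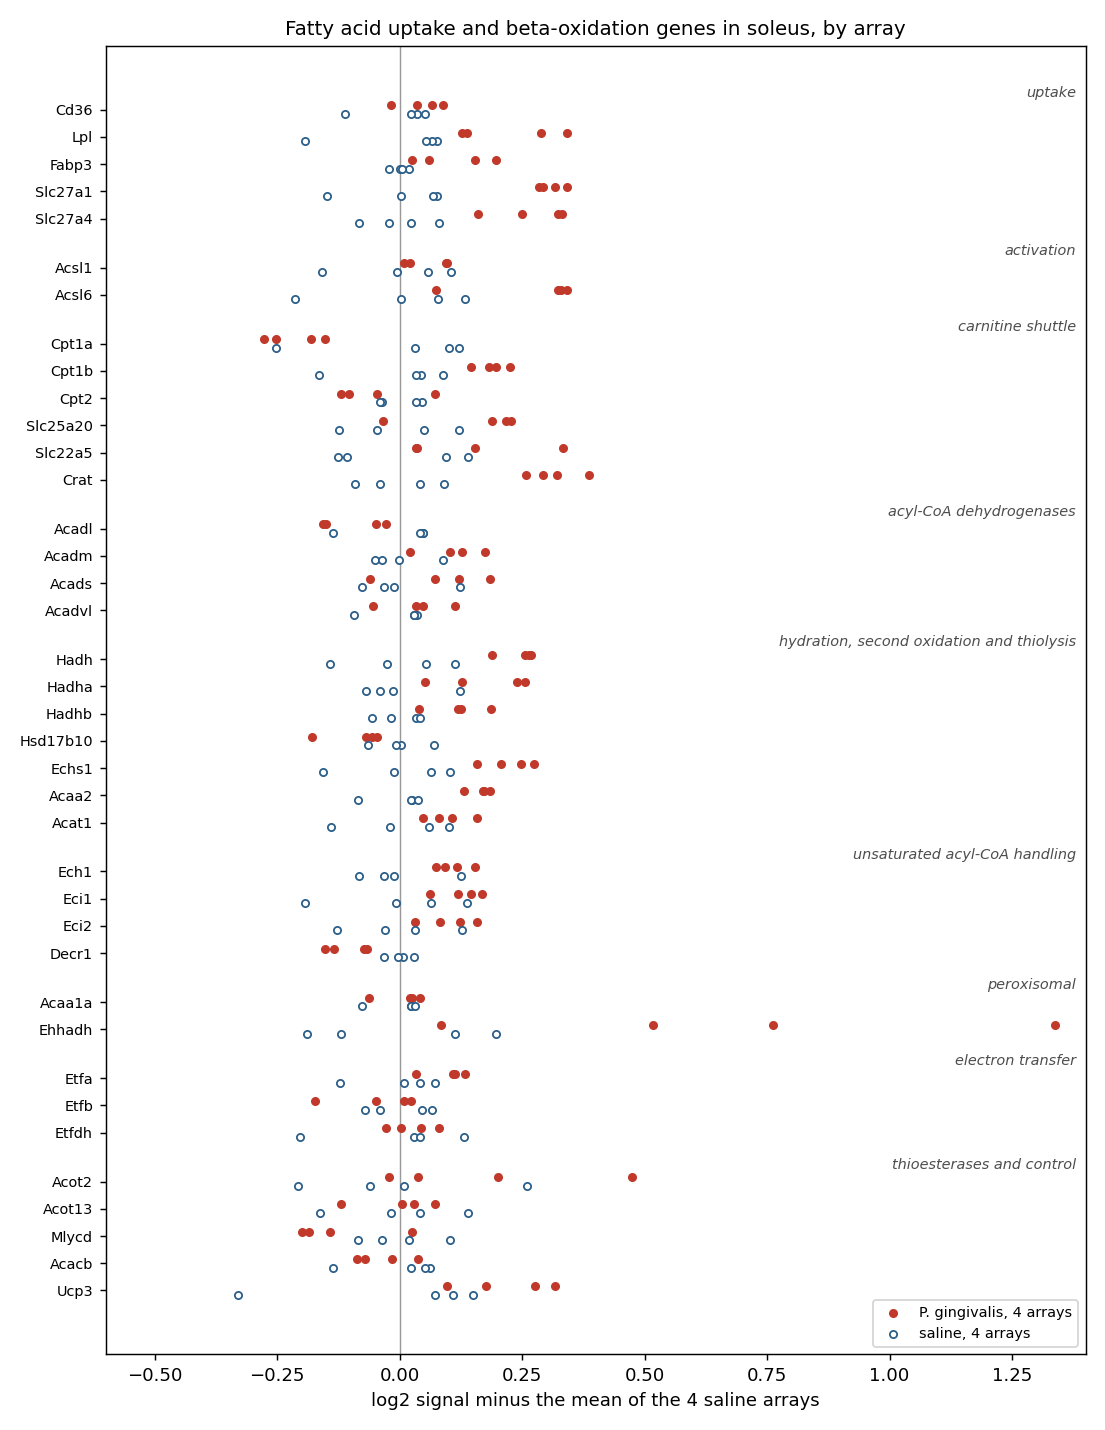
Level of each of the 38 genes on each array, as log2 signal minus the mean of the 4 saline arrays, with the P. gingivalis arrays (filled) drawn above the saline arrays (open) for each gene. Crat, Slc27a1, Slc27a4, Hadh, Acaa2, Echs1, Cpt1b, Lpl and Fabp3 have separate groups with P. gingivalis to the right, and Decr1 with P. gingivalis to the left.

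The plot of levels by array shows 1 open point well to the left of the others for many genes, which was saline 2 for Lpl, Acadl, Acadvl, Acaa2 and Cd36. As a median over the 38 genes of each array's deviation from the gene's mean, the P. gingivalis arrays stood at 0.067, 0.035, 0.069 and 0.0023, and the saline arrays at -0.017, -0.16, -0.0078 and -0.034. P. gingivalis 4 was close to the saline arrays and saline 2 was far below them. Without saline 2 the median difference of the 38 genes was 0.075. In that setting 8 of the 38 were left at unadjusted p under 0.05, and 16% of all genes.

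The acyl-CoA dehydrogenases, which start each turn of the cycle for chains of different length, had small differences. Of the 4 genes 3 were higher, and none had an unadjusted p under 0.05 (19.7% of all genes). Their median was 0.06, or -0.0091 with quantile normalization. Acadm, the medium-chain enzyme, read 7.36, 7.47, 7.44 and 7.52 in P. gingivalis arrays, against 7.43, 7.29, 7.34 and 7.30 in saline arrays. Saline 1 lay above P. gingivalis 1, and the difference was 0.11 ± 0.06 (95% interval -0.03 to 0.24; adjusted p = 0.349). Acads, the short-chain enzyme, differed by 0.08 and Acadvl, the very-long-chain enzyme, by 0.04, while Acadl, the long-chain enzyme, differed by -0.10. Their adjusted p-values were 0.571, 0.768 and 0.449.

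Among the enzymes of the later steps of the cycle the differences were larger. Of 7 genes for hydration, the further dehydrogenation and thiolysis, 6 were higher (47.7% of all genes). With a higher level, 4 had an unadjusted p under 0.05 (10.0% of all genes). The groups of 3 did not overlap, again with a higher level (7.33% of all genes). Their median was 0.16, and 0.07 with quantile normalization. Hadh, the short-chain hydroxyacyl-CoA dehydrogenase, read 5.94, 5.87, 5.95 and 5.93 in P. gingivalis arrays, against 5.65, 5.54, 5.79 and 5.73 in saline arrays. Its P. gingivalis arrays were tightly grouped above all saline arrays, with a difference of 0.24 ± 0.07, a fold of 1.18 and an adjusted p of 0.119. Echs1, the short-chain enoyl-CoA hydratase, had levels of 5.42, 5.37, 5.49 and 5.46 in P. gingivalis arrays, against 5.20, 5.06, 5.32 and 5.28 in saline arrays. The groups were separate, by 0.22 ± 0.07 with an adjusted p of 0.150. The other Echs1 probe, at base 29 of NM_053119, differed by 0.03 ± 0.07 with groups that overlapped (adjusted p = 0.866 over all probes).

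Acaa2, the mitochondrial thiolase, read 8.20, 8.21, 8.20 and 8.16 in P. gingivalis arrays, against 8.06, 7.95, 8.05 and 8.07 in saline arrays. The spread among P. gingivalis arrays was small and the groups were separate, with a difference of 0.16 ± 0.05, a fold of 1.12 and an adjusted p of 0.146. With quantile normalization the Acaa2 difference was 0.05. Hadha and Hadhb encode the subunits of the trifunctional protein, which takes long chains through these steps. Hadha read 4.88, 4.77, 4.90 and 4.69 in P. gingivalis arrays, against 4.76, 4.60, 4.63 and 4.57 in saline arrays. P. gingivalis 4 was within the saline range and the other 3 were above it, with a difference of 0.17 ± 0.07 and an adjusted p of 0.242. Hadhb differed by 0.12 (adjusted p = 0.278), by 0.02 with quantile normalization and by 0.26 at a dimmer upstream probe. Acat1, the acetoacetyl-CoA thiolase, differed by 0.10 and Hsd17b10, a hydroxyacyl-CoA dehydrogenase of branched and other substrates, by -0.09, with adjusted p-values of 0.442 and 0.419.

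Unsaturated chains need auxiliary enzymes. The isomerases Eci1 and Eci2 and the related Ech1 differed by 0.12, 0.10 and 0.11, with adjusted p-values of 0.413, 0.452 and 0.354. A dimmer upstream Eci2 probe differed by 0.19 with separate groups (adjusted p = 0.125 over all probes). Decr1, the dienoyl-CoA reductase, was the gene whose groups were separate in the other direction. It read 6.74, 6.66, 6.74 and 6.68 in P. gingivalis arrays, against 6.82, 6.78, 6.81 and 6.84 in saline arrays. The difference was small, -0.11 ± 0.05 (95% interval -0.22 to 0.0040; adjusted p = 0.268), and 0.04 with centring on the median of all probes.

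Of the peroxisomal enzymes, Ehhadh, the bifunctional hydratase and dehydrogenase, had the largest difference of the 38 genes and the widest spread. It read 0.36, -0.32, 0.94 and 0.12 in P. gingivalis arrays, against -0.52, -0.59, -0.29 and -0.20 in saline arrays. Of the P. gingivalis arrays 3 lay above every saline array, and P. gingivalis 2 lay among them. The difference was 0.68 ± 0.25 (95% interval 0.11 to 1.24), a fold of 1.60 with an adjusted p of 0.194, and it was 0.45 without P. gingivalis 3 and 0.87 without P. gingivalis 2. Acaa1a, the peroxisomal thiolase, differed by 0.01 (adjusted p = 0.958), and by -0.02 with quantile normalization.

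The electron transfer genes gave a median of 0.02, and -0.0057 with quantile normalization. Etfdh, which passes electrons to ubiquinone, read 6.09, 6.05, 6.12 and 6.02 in P. gingivalis arrays, against 6.18, 5.84, 6.07 and 6.09 in saline arrays. The groups overlapped widely, with a difference of 0.02 ± 0.08 and an interval of -0.16 to 0.21. Etfa and Etfb, the flavoprotein subunits, differed by 0.10 and -0.05, with adjusted p-values of 0.406 and 0.711. The 2 dimmer Etfa probes differed by 0.20 and 0.18, both with separate groups (adjusted p = 0.113 and 0.156 over all probes). The dimmer Etfb probe differed by 0.05 with groups that overlapped.

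The thioesterases and control genes had no common direction, with 2 of 5 higher and none at unadjusted p under 0.05 (19.7% of all genes). With centring on the median of all probes all 5 were higher (median 0.15), and 4 of 5 with the authors' table values. Acacb makes malonyl-CoA, the inhibitor of CPT1, and Mlycd removes it. Acacb read 5.48, 5.59, 5.53 and 5.46 in P. gingivalis arrays, against 5.61, 5.41, 5.60 and 5.57 in saline arrays, a difference of -0.03 ± 0.06. Mlycd read 6.08, 5.87, 5.91 and 5.85 in P. gingivalis arrays, against 6.15, 6.07, 6.02 and 5.97 in saline arrays. P. gingivalis 1 overlapped the saline arrays and the difference was -0.13 ± 0.07 (adjusted p = 0.370). Both signs turn with centring on the median of all probes, to 0.11 for Acacb and 0.02 for Mlycd, and the upstream Mlycd probe differed by 0.13.

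Ucp3, the mitochondrial carrier of muscle that follows fatty acid supply, read 2.28, 2.24, 2.06 and 2.14 in P. gingivalis arrays, against 1.63, 2.11, 2.03 and 2.07 in saline arrays. Saline 1 alone was far below the rest. The difference was 0.22 ± 0.11 (adjusted p = 0.337) with it and 0.11 without it. Of the thioesterases, Acot2 differed by 0.17 and Acot13 by -0.0033, with adjusted p-values of 0.510 and 0.986. Acot2 was 0.072 without P. gingivalis 1, 0.10 without saline 2 and 0.26 without saline 1.

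How far the result depends on the probe could be read within transcripts. The 63 kept probes of the 38 genes held 24 at unadjusted p under 0.05 (20.6% of all 33748 kept probes), 23 of them higher in the P. gingivalis arrays, as were 4037 of the 6949 such probes over the whole array. At an adjusted p under 0.05 there were 0, against 55 of all kept probes (0.163%). Of 16 genes with several kept probes, 5 had probes that differed in sign. In 12 genes a pair of probes on 1 RefSeq transcript lay at least 200 bases apart. In 11 of the 12 the upstream probe gave the larger P. gingivalis minus saline difference, with a median excess of 0.11 and a range of -0.20 to 0.38. Cpt2 had the largest excess and Echs1 was the exception. The upstream probe was the dimmer in all 12.

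The same excess ran through the arrays as a whole. Over 3652 transcripts with such a pair, 67.8% had the larger difference upstream, with a median excess of 0.09. The median of upstream minus downstream deviations was 0.057, 0.053, 0.032 and 0.043 in P. gingivalis arrays, against -0.062, -0.019, -0.031 and -0.078 in saline arrays. All P. gingivalis arrays were above all saline arrays (exact two-sided permutation p = 0.0286, the smallest that 70 assignments allow). In 3169 transcripts whose upstream probe was the dimmer the median excess was 0.10. In 483 whose upstream probe was the brighter it was 0.0091 (exact permutation p = 0.657). Probe position and brightness go together on this array. Their part in the differences of the 38 genes was not tested.

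**Figure D4:**
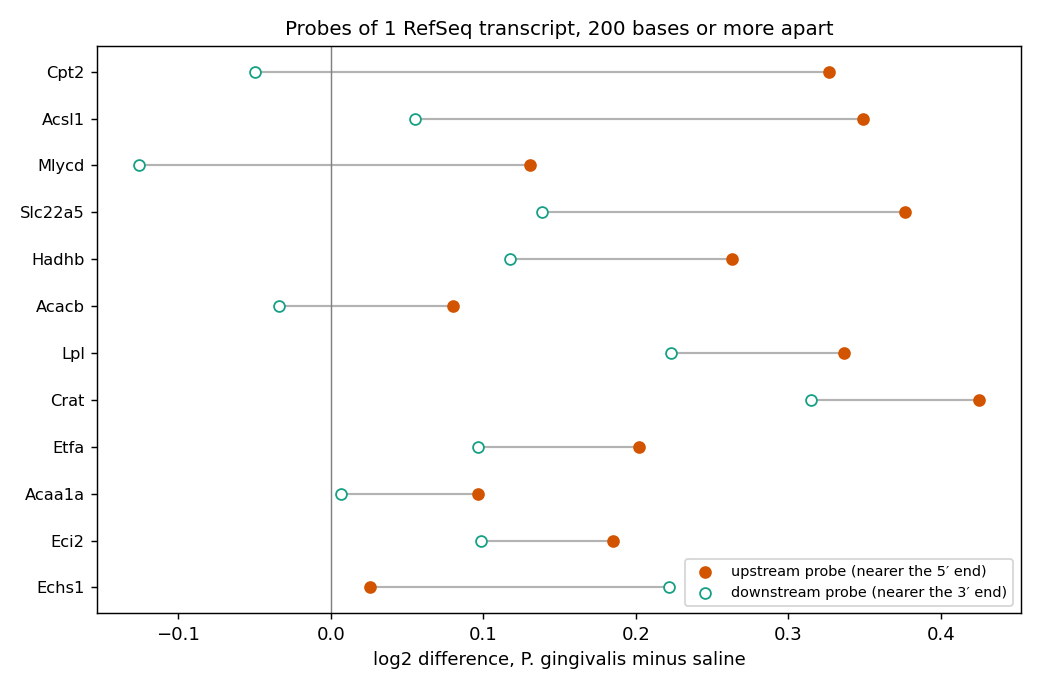
Log2 difference, P. gingivalis minus saline, of the upstream and downstream probe of 1 RefSeq transcript for the 12 genes with such a pair at least 200 bases apart. The upstream point is the higher in 11 of 12, and Echs1 is the exception.

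In the plot of probe pairs, Cpt2 and Mlycd have an upstream point above 0 and a downstream point below it, and so has Acacb. Reading the most upstream RefSeq probe of every gene gave 32 of the 38 genes higher and a median of 0.13. The most downstream one gave 29 of 38 and 0.11.

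Other genes of fatty acid metabolism had a median closer to that of all genes. Of 36 measured (38 listed), 21 were higher, with a median of 0.02. At unadjusted p under 0.05, 3 were higher (10.0% of all genes) and 3 lower (9.69% of all genes). Fabp5, a fatty acid binding protein, differed by -0.35 (adjusted p = 0.181) and the thioesterase Acot9 by -0.19 (adjusted p = 0.186). Of 20 regulators and partners, 13 were higher, with a median of 0.04. Angptl4, a secreted inhibitor of lipoprotein lipase that fatty acids induce, differed by 0.51 (adjusted p = 0.178), the co-regulator Lpin1 by 0.31 (adjusted p = 0.180) and Pparg by -0.22 (adjusted p = 0.184).

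Genes of the citric acid cycle and pyruvate dehydrogenase, which meet beta-oxidation at acetyl-CoA, leaned the same way as the 38. Of 23 genes 20 were higher, with a median of 0.08, and 7 were higher at unadjusted p under 0.05 (10.0% of all genes). The groups did not overlap for 8, all higher (7.33% of all genes). That is 34.8% of the 23, beside 23.7% of the 38. With quantile normalization 14 of 23 were higher and the median was 0.03. Pdha1 differed by 0.21 (adjusted p = 0.127) and Dld by 0.20 (adjusted p = 0.145).

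Markers of the cell types in a whole muscle were set beside these genes, and none passed the adjusted threshold. In bulk RNA fewer cells of a type and less RNA per cell cannot be told apart. All 45 markers in 7 lists were well above background on all 8 arrays, so no defining marker was at 0. Slow-fibre and fast-fibre genes were both present, as soleus should show. The summed linear level of the 7 slow-fibre markers was 3089 to 3363 times the 75th percentile in P. gingivalis arrays and 2812 to 2989 in saline arrays. For the 8 fast-fibre markers it was 3097 to 3892 in P. gingivalis arrays and 2829 to 3149 in saline arrays. All 7 slow-fibre genes were higher (median 0.14), and all 8 fast-fibre genes (median 0.17), but 5 of 7 (median 0.02) and 6 of 8 (median 0.03) with quantile normalization. Myl3, Tnnc1 and Myl2 differed by 0.20, 0.19 and 0.21, and Atp2a1, the fast calcium pump, by 0.50 (adjusted p = 0.0560), with Tnnc2 at 0.25 and Myh2 at 0.17.

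Endothelial markers, from the cells that carry lipoprotein lipase on their surface, mostly went the other way. Their sum was 71.1 to 77.0 in P. gingivalis arrays and 82.7 to 91.6 in saline arrays, and 6 of 8 were lower with a median of -0.21. Egfl7 differed by -0.40 (adjusted p = 0.0597), Kdr by -0.55 (adjusted p = 0.0644) and Ptprb by -0.29 (adjusted p = 0.0736). The 2 higher were Pecam1 at 0.18 (adjusted p = 0.238) and Tie1 at 0.18 (adjusted p = 0.417). Gpihbp1 was nearly level, at -0.06 (adjusted p = 0.754). With centring on the median of all probes 4 of 8 were lower and the median was -0.06. All 6 macrophage markers were lower (median -0.43) and all 5 red blood cell genes higher (median 0.57), none at unadjusted p under 0.05. Adipocyte genes had sums of 138 to 155 in P. gingivalis arrays and 125 to 168 in saline arrays, a full overlap. Fabp4, the brightest of them (mean level 6.93 in both groups), dominates these sums. As median deviations the adipocyte genes stood at 0.94 in saline 1 and 0.65 in P. gingivalis 2. The other arrays lay between -0.48 and 0.16. Nerve markers had a median of -0.08, and 2 of 4 were higher. The sums of the 38 fatty acid genes were 3388 to 3534 in P. gingivalis arrays and 3088 to 3369 in saline arrays. They were separate by a narrow margin, and the sums of slow-fibre and endothelial markers were separate too. Those of the citric acid cycle were barely separate, 2797.4 to 2941.7 in P. gingivalis arrays and 2517.7 to 2796.8 in saline arrays. The part of fibre and vessel content in the differences of the 38 genes was not tested.

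**Figure D5:**
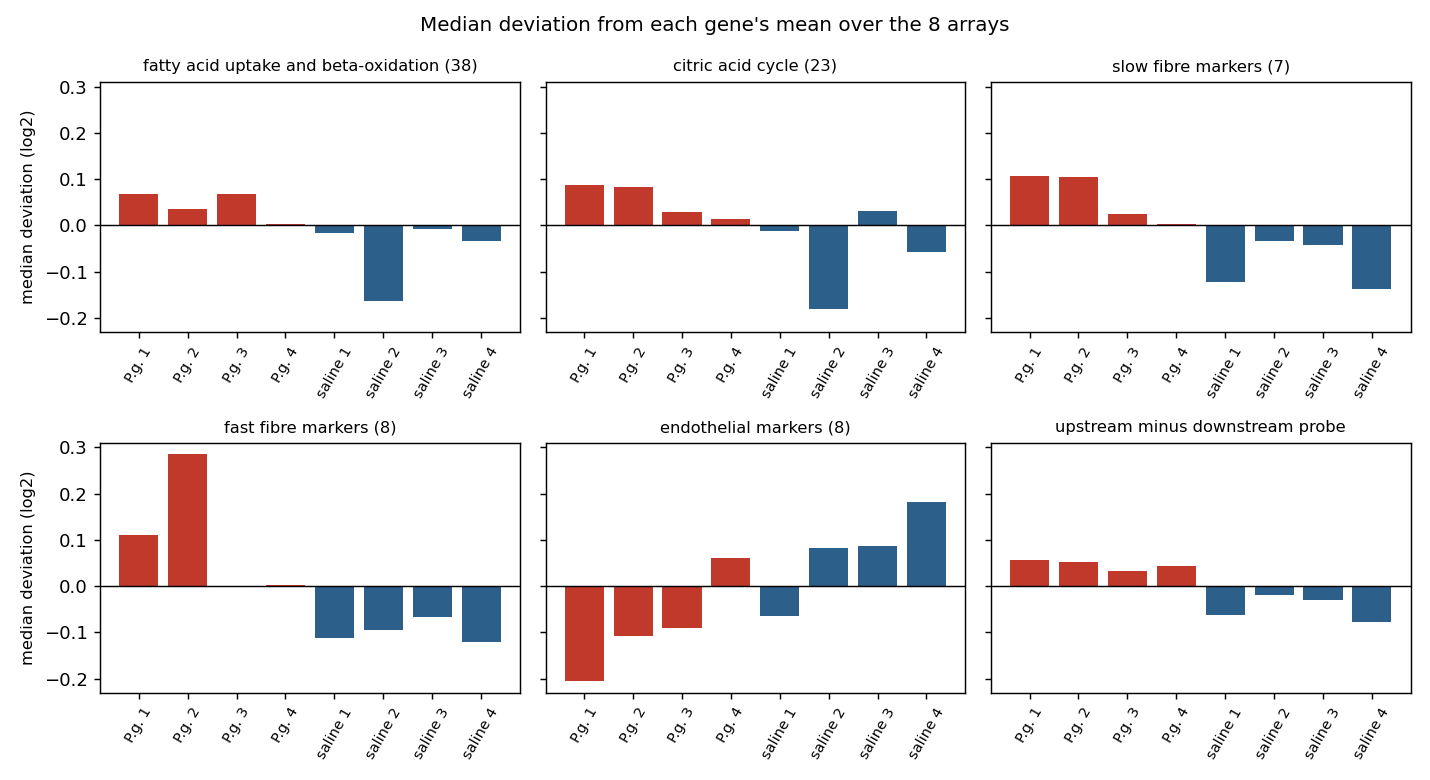
Median deviation from each gene's mean over the genes of each list, for each array (log2), with P. gingivalis arrays left of saline arrays. The 38 fatty acid genes stand between 0.0023 and 0.069 in P. gingivalis arrays and between -0.16 and -0.0078 in saline arrays, and both fibre lists lie higher in the P. gingivalis arrays. The last panel is the median of upstream minus downstream probes. Quantile normalization leaves 5 of 7 slow-fibre and 6 of 8 fast-fibre genes higher.

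The plot of lists by array shows saline 2 as the lowest array for the 38 genes and for the citric acid cycle. Its fast-fibre and slow-fibre medians were not the lowest of the saline arrays. The endothelial medians overlapped, with P. gingivalis 4 at 0.061 and saline 1 at -0.065, although the sums did not.

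The authors' deposited table was set beside these values. Each of its 8 columns followed the array of the other group with the same number (r = 0.889 to 0.928 across 23517 rows, against -0.386 to -0.036 for the array of its own name). Of the 47 rows for the 38 genes in the authors' deposited table, 3 had an adjusted p under 0.05, against 431 of its 28250 rows (1.53%). As named there, P. gingivalis minus saline, they were Acsl1 at the ENSMUST00000128746 probe with -0.74 (adjusted p = 0.0443), Crat with -0.34 (0.0443) and Slc27a1 with -0.32 (0.0447). These signs are opposite to those given above because the columns carry the other group's name. Taking that table's values with the groups of the sample records, 27 of the 38 genes were higher. Their median was 0.099, beside 0.023 over all genes. Crat, Slc22a5 and Slc27a1 passed the threshold, as did 361 of all 22518 genes (263 of them higher). Each gene was read from its brightest probe in that table, which lacks the brightest probe of some genes, Lpl and Fabp3 among them.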

How the data were processed

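The deposited spot intensity values came, per the file headers, from Agilent Feature Extraction 11.0.1.1 on array design 074809 (version 11.1 per the submitters' processing notes), with probe positions in build mm9. Per the labels, 200 ng of total RNA was labelled with Cy3. The processed signal is background-subtracted, per the file headers. From it, log2 values were formed and each array's 75th percentile over non-control spots was subtracted. Spots with outlier flags were left out (466 probes on at least 1 array) and spots of 1 probe averaged. Probes well above background on at least 4 of 8 arrays were kept (33748 of 56605), and each of 22291 genes, by the name in the files, was read from its brightest kept probe. The comparison used limma (version 3.58.1, R 4.3.3) with group as the only term, two-sided, and p-values were adjusted by Benjamini-Hochberg over the 22291 genes. The fit was tested on simulated data. Arrays correlated at 0.989 to 0.995 within groups and 0.989 to 0.992 between them. The number of arrays limits the precision. P. gingivalis 2 alone carried an extraction status to be evaluated.

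The authors' deposited table gives log2 values, log2 fold changes and p-values for 28250 rows, and its moderated statistic and log odds, each a score in the deposited columns, were not used. Its scale was not stated in the sources used here. Alternatives covered background correction, scaling, the filter, the probe rule, variance models, array weights, the replicate block, each array left out and that table's values.

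The 38 genes, the other lists and the tests were chosen with earlier results of these data known. Array values are given for the 12 genes with the smallest unadjusted p and for Cd36, Lpl, Cpt1b, Acadm, Hadha, Etfdh, Mlycd, Acacb and Ucp3. For other lists the 3 genes with the smallest unadjusted p are named, except 2 genes that are not reported here and the adipocyte, macrophage, red blood cell and nerve lists, which had none at unadjusted p under 0.05. Array values of Fabp3 and Decr1, and those of single probes, were added after values were seen. So were the values of Pecam1, Tie1, Gpihbp1, Fabp4 and Myh4. Each gene's differences with their errors come from the fit over all genes, and those of probes from a fit over all kept probes. Probe sequences are those of the deposited files, read 5′ to 3′, and 51 of 51 probes checked lay on the strand that RefSeq gives their gene.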

Additional observations from a re-analysis of the deposited data

Results flagged for a closer look

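Of 98 groups of 4 arrays examined, 13 held an array apart from the other 3 by Dixon's criterion, 11 of them among the 76 groups of the 38 genes. Chance marks about 1 in 20. In each case the array was the lowest of its group.

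Saline 2 was the array apart in 6. It read 5.01 for Cd36 (the other saline arrays 5.15 to 5.18), 7.25 for Lpl (7.50 to 7.52), 6.34 for Acadl (6.52 to 6.53), 7.67 for Acadvl (7.79 to 7.80) and 7.95 for Acaa2 (8.05 to 8.07). Its median deviation over the 38 genes was -0.16 (the other saline arrays -0.034 to -0.0078). Saline 4 stood apart for Acaa1a at 5.13 (5.23 to 5.24) and saline 1 for Ucp3 at 1.63 (2.03 to 2.11).

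P. gingivalis 1 stood apart for Acsl6 at 0.21 (the other P. gingivalis arrays 0.46 to 0.48), for Slc25a20 at 3.20 (3.42 to 3.46) and for the median of the nerve markers at -0.35 (-0.012 to 0.057). P. gingivalis 2 stood apart for Hadh at 5.87 (5.93 to 5.95), and P. gingivalis 4 for Hsd17b10 at 4.76 (4.87 to 4.89).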

How the results depend on the processing

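The count of all genes at an adjusted p under 0.05 (limma) was 26, 8 higher and 18 lower in P. gingivalis. It was 505 (336 higher, 169 lower) with normexp, 197 (138 and 59) with quantile normalization, 1908 (1822 and 86) with centring on the median of all probes and 91 (58 and 33) over kept probes. It was 260 (145 and 115) with the filter on all 8 arrays, 5174 (511 and 4663) without a filter, 9 with the mean of all probes, 554 with trended and robust variance, 200 with array weights and 361 with the authors' table values. It was 10 with the most upstream and 9 with the most downstream RefSeq probe, 0 with the replicate block, and 2 to 7 with 1 array left out. Of the 38 genes 0 passed at first. Those passing were 2 (Crat, Slc27a1) with normexp and with trended variance, 9 with median centring, 1 (Crat) with the stricter filter, 3 with no filter (those and Slc27a4) and 3 with the authors' table values. It was 0 in the other settings, each array left out included. At unadjusted p under 0.05 there were 12 of the 38 (19.7% of all genes), 28 with median centring (31.6% of all genes, 29.3% with a higher level) and 8 to 12 with 1 array left out (15.9% to 20.8% of all genes). The median of the 38 was 0.05 with quantile normalization, 0.26 with median centring and 0.075 to 0.12 with 1 array left out. Same-numbered arrays deviated together weakly or not at all (correlations 0.065, -0.058, -0.041 and 0.233). They shared a slide column, so these values do not settle whether the numbers pair them. With the replicate block 12 of the 38 had an unadjusted p under 0.05, all 12 higher (10.1% of all genes), 11 of them also without it, with Acot2 gained and Cpt1a lost. Of 798 values for single genes, 38 changed sign, in 17 genes, and 21 genes never did. With normexp Cpt2 was 0.0066, Etfb 0.017 and Acot13 0.036. Quantile normalization gave Acsl1 -0.0028, Acadvl -0.054, Acaa1a -0.021 and Etfdh -0.0057. Median centring gave Cpt2 0.099, Acadl 0.053, Hsd17b10 0.061, Decr1 0.042, Etfb 0.10, Acot13 0.15, Mlycd 0.023 and Acacb 0.11. The mean of all probes gave Lpl -0.049, Cpt2 0.14 and Mlycd 0.0025. Acot13 was 0.011 with array weights and 0.021 with centring over kept probes. The most upstream probe gave Cpt2 0.33, Mlycd 0.13 and Acacb 0.080. The authors' table values gave Cd36 -4.3e-05, Fabp3 -0.049, Cpt2 0.15, Acadm -0.029, Acadvl -0.12, Ech1 -0.024, Acot13 0.019 and Mlycd 0.025. Fabp3 was read there from its upstream probe, not its brightest. With 1 array left out, Acaa1a spanned -0.019 to 0.029, Etfdh -0.043 to 0.069 and Acot13 -0.058 to 0.043. The cause of these changes was not tested. Centring over kept probes and the probe-position choices were added after seeing the data. Over probe pairs at least 500 bases apart, 65.5% of 2947 transcripts had the larger difference upstream, with a median excess of 0.089.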
